A study of Drosophila melanogaster with 4 samples.

Results

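The Eig71E genes form a cluster of late ecdysone-induced genes on chromosome arm 3L of Drosophila melanogaster. They were chosen by name, as the 10 genes Eig71Ea to Eig71Ej, and 4 of the 10 had a row among the 12116 genes of the authors' table: Eig71Ea, Eig71Eb, Eig71Ee and Eig71Eg. The other 6, Eig71Ec, Eig71Ed, Eig71Ef, Eig71Eh, Eig71Ei and Eig71Ej, had no row in the values used here and are named only. The tested larvae were homozygous for hsromega[66], written hsromega66 here, an allele of the long noncoding RNA gene Hsromega, and the control larvae were of the wild-type stock Oregon R+. The samples were whole wandering larvae of the third instar, with 2 total RNA libraries per genotype and 5 larvae in each library. The authors gave 1 FPKM value (fragments per kilobase of transcript and 1000000 mapped fragments) for each transcript and genotype, pooled over the libraries, so none of the levels below carries a spread between libraries.

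Ecdysone acts in a cascade. The hormone binds the EcR and Usp receptor, the receptor switches on early regulators such as br and Eip74EF, and the early regulators in turn act on late genes. At the end of the third instar this cascade appears as chromosome puffs in the salivary gland, first early puffs and then late ones, and the region that holds this cluster is a late puff. Most Eig71E genes, also called the L71 genes, encode small secreted basic proteins rich in cysteine, likened to defensins, and are made in the salivary gland around the time of puparium formation. Eig71Ee differs from them: it encodes a larger, mucin-like protein of the salivary gland that is also found in immune tissue and in the haemolymph clot, and it is known to be active earlier in the third instar.

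The gene models show the same division. The 10 genes spanned 11890 bp (3L, 15649126 to 15661015, dm6), 6 of them on the minus strand and 4 on the plus strand. Leaving out Eig71Ee, their annotated transcripts had exonic lengths of 393 to 639 bases and coded for 95 to 173 residues. Eig71Ee had an exonic length of 1486 bases and coded for 445 residues. The family, which in the annotation also includes Eig71Ek, held 5 divergent pairs, a minus-strand gene followed by a plus-strand gene, whose start sites lay 233 to 283 bp apart. Eig71Ea and Eig71Eb were the 1 pair with both genes in the table. Their start sites, at 15649661 and 15649936, lay 275 bp apart. Of the pair Eig71Ef and Eig71Eg, only Eig71Eg had a row, and none of the genes of the remaining pairs did. Eig71Ee belonged to no pair.

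**Figure D1:**
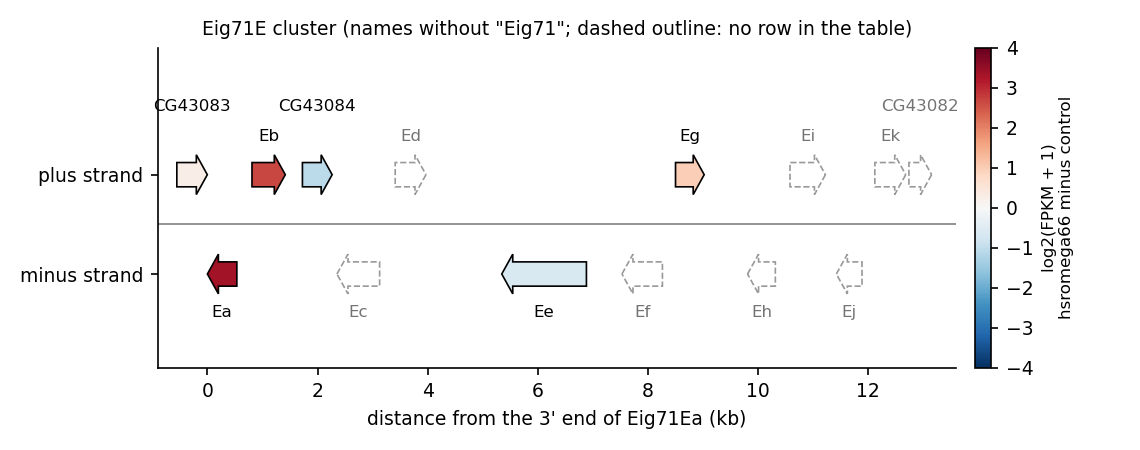
Map of the Eig71E cluster, with distance from the 3' end of Eig71Ea in kb on the x axis and the 2 strands on the y axis. Arrows are genes in their direction of transcription, filled by the log2(FPKM + 1) of hsromega66 minus control, with a dashed outline where the gene had no row; Eig71Ea and Eig71Eb, which start 275 bp apart, carry the strongest positive colours of the map, and CG43084 beside them is negative.

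The mutated gene was low in the mutant larvae. Hsromega was listed at 0.290 FPKM in hsromega66 larvae, against 232 FPKM in control larvae, a difference that did not pass in the authors' deposited table (lowest q = 0.998). A gene is called below where the authors' deposited table gave a q-value of 0.05 or below to any of its transcripts. This held for 280 of 12116 genes, or 2.31%, with 170 higher in hsromega66 larvae (1.4%) and 110 lower (0.908%). Sequencing depth is unknown, since the values are FPKM only.

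Of the 4 listed Eig71E genes, 3 had a higher FPKM in hsromega66 larvae and 1, Eig71Ee, had a lower one. None was called by the authors' Cuffdiff q-value, and 3 of 4 had a nominal, that is unadjusted, Cuffdiff p of 0.05 or below, all of them higher in hsromega66 larvae. Such a p was found for 968 of 21529 transcripts, or 4.5%, in either direction and for 574, or 2.67%, in the upward direction. Each of the 4 genes had a single listed transcript, so these transcript counts are on the same footing. The median log2(FPKM + 1) difference of the 4 genes, hsromega66 minus control, was 1.82, beside -0.011 over the 11607 genes that reached 1 FPKM in a genotype. Over those genes 48.3% were higher in hsromega66 larvae. With 4 listed genes of 10, 1 of which was listed only because of its mutant level, these counts and the median describe the listed genes and not the cluster.

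Eig71Ea (FBgn0004588; 3L, 15649126 to 15649661, minus strand, 3 exons, 100 residues) had the widest difference of the 4 listed genes. It stood at 17.5 FPKM in hsromega66 larvae, against 0.792 FPKM in control larvae, a ratio of 22.1. On the log2(FPKM + 1) scale, which understates changes of low genes, the difference was 3.37. The authors' deposited table gave it an unadjusted p of 0.0154 and a q of 0.536. The gene was therefore near the lower edge of the table in control larvae, where every listed transcript reached at least 0.669 FPKM in 1 genotype, and of middle abundance in the mutant: by FPKM it ranked 3888 of 12116 genes in hsromega66 larvae and 11593 in control larvae.

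Its divergent partner Eig71Eb (FBgn0004589; 3L, 15649936 to 15650541, plus strand, 3 exons, 95 residues) followed the same pattern. Its level was 9.17 FPKM in hsromega66 larvae, against 0.604 FPKM in control larvae, a ratio of 15.2 and a difference of 2.66 on the log2(FPKM + 1) scale. In the authors' deposited table its unadjusted p was 0.0313 and its q 0.847. The control value is below 0.669 FPKM, so Eig71Eb entered the table only through its level in the mutant, and a difference in that direction was bound to be seen once it was listed. The annotation gives the gene 2 transcripts, and 1 of them had a row.

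Within the pair, Eig71Ea stood at 1.91 times the FPKM of Eig71Eb in hsromega66 larvae and 1.31 times in control larvae. The authors placed both transcripts in their class "Upregulated", which held 134 of 21529 transcripts (0.622%) and which follows a nominal p of 0.05 or below with a log2 FPKM ratio of at least 2. Of these 134 transcripts, 72 also had a q of 0.05 or below in the authors' deposited table, and the Eig71E transcripts were not among them. By FPKM ratio with no pseudocount, Eig71Ea ranked 239 and Eig71Eb 276 from the top among the 21164 transcripts above 0 in both genotypes.

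Large ratios were common among transcripts with low control values. Of 3140 transcripts with a control value above 0 and under 1 FPKM and a value above 0 in the mutant, 611, or 19.5%, had a log2 FPKM ratio of at least 2. Of the 3140, 65 stood at 5 FPKM or more in hsromega66 larvae, Eig71Ea and Eig71Eb among them. Of those 65, 17 had a nominal p of 0.05 or below and 6 a q of 0.05 or below in the authors' deposited table. Multiplied by the annotated exonic length in kb, FPKM gives an approximate number of fragments per 1000000 mapped, which came to 7.21 in hsromega66 larvae and 0.326 in control larvae for Eig71Ea. For Eig71Eb they came to 4.33 in hsromega66 larvae and 0.285 in control larvae. On that scale Eig71Ee had 1348 in hsromega66 larvae and 2114 in control larvae, so the control levels of the pair rest on few fragments beside it.

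Eig71Eg (FBgn0004594; 3L, 15657628 to 15658149, plus strand, 3 exons, 98 residues) is of the same small, secreted kind and was well above the edge of the table in both genotypes. It had 28.8 FPKM in hsromega66 larvae and 14.2 FPKM in control larvae, a ratio of 2.04 and a difference of 0.98 on the log2(FPKM + 1) scale. The authors' deposited table gave an unadjusted p of 0.0170 and a q of 0.566. Its p was close to that of Eig71Ea although its ratio was far smaller. In control larvae Eig71Eg stood at 17.9 times the FPKM of Eig71Ea, and in hsromega66 larvae at 1.65 times.

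Eig71Ee (FBgn0004592; 3L, 15654472 to 15656010, minus strand, 2 exons, 445 residues) was the most abundant of the 4 listed genes and the 1 whose level was lower in the mutant. It stood at 907 FPKM in hsromega66 larvae, against 1423 FPKM in control larvae, a difference of -0.65 on the log2 scale. With an unadjusted p of 0.067 and a q of 0.998 in the authors' deposited table, it did not pass. Among 12116 genes its FPKM ranked 194 in hsromega66 larvae and 131 in control larvae.

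**Figure D2:**
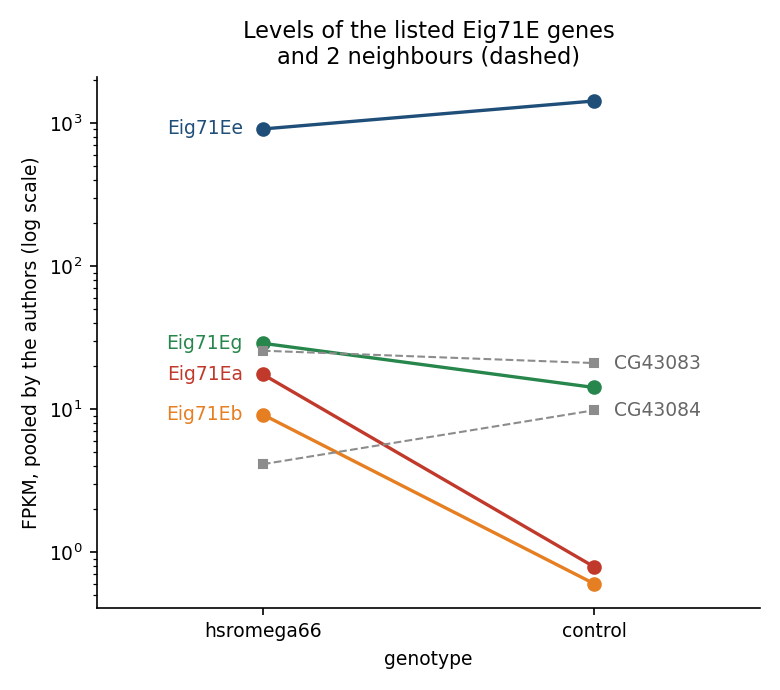
Levels of the 4 listed Eig71E genes (coloured, solid) and of their neighbours CG43083 and CG43084 (grey, dashed), with genotype on the x axis and FPKM on a log y axis; each point is 1 pooled value, so there are no error bars. Eig71Ea and Eig71Eb lie at 17.5 and 9.17 FPKM in hsromega66 larvae and under 1 FPKM in control larvae, whereas Eig71Ee lies near the top in both.

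The order of the 4 levels was the same in both genotypes: Eig71Ee, Eig71Eg, Eig71Ea, Eig71Eb. With pooled values it cannot be said which neighbours in that order differ beyond the spread between libraries. In the mutant Eig71Ee had 51.8 times the FPKM of Eig71Ea, against 1797 times in control larvae, where Eig71Ea stood at 0.792 FPKM. Because Eig71Ee made up 94.2% of the summed FPKM of the listed members in hsromega66 larvae and 98.9% in control larvae, the sum followed that gene, at 962 FPKM in hsromega66 larvae and 1438 FPKM in control larvae. Without Eig71Ee the sum of the 3 small genes was 55.5 FPKM in hsromega66 larvae and 15.6 FPKM in control larvae, a ratio of 3.57. That sum includes Eig71Eb, which was listed only through its mutant level, and leaves out the 6 members with no row. It therefore describes the listed small genes and not the small genes of the cluster.

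**Figure D3:**
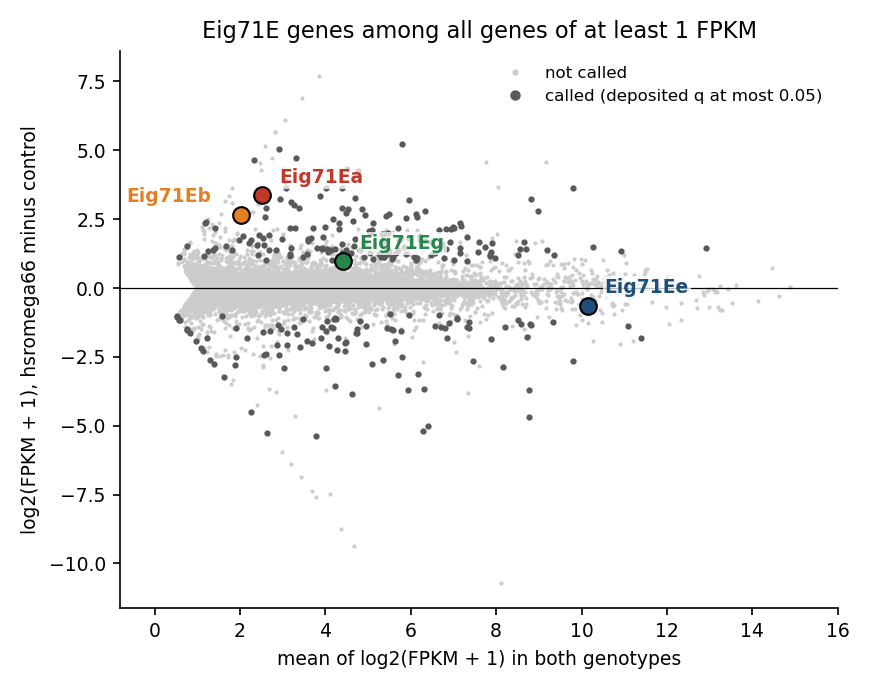
Every gene of at least 1 FPKM in a genotype, with the mean log2(FPKM + 1) of both genotypes on the x axis and the difference, hsromega66 minus control, on the y axis; dark points are genes called by the authors' q-value and large coloured points the 4 listed Eig71E genes. Eig71Ea (3.37) and Eig71Eb (2.66) lie above most genes of their level, Eig71Eg (0.98) above the bulk, and Eig71Ee (-0.65) a little below 0 among the abundant genes.

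Of the genes around the Eig71Ea and Eig71Eb pair, 1 stood lower in the mutant and 1 at a similar level. The annotation places 7 other genes within 20 kb of the cluster, of which 4 had a row and none was called by the authors' Cuffdiff q-value. CG43084, the next plus-strand gene after Eig71Eb and the 1 listed gene inside the cluster from outside the member list, was lower in the mutant, at 4.13 FPKM in hsromega66 larvae and 9.83 FPKM in control larvae (unadjusted p = 0.035 and q = 0.903 in the authors' deposited table). CG43083 ends on the base before Eig71Ea ends, on the opposite strand, with 0 bases between them. It stood at 25.6 FPKM in hsromega66 larvae and 21.0 FPKM in control larvae, where the authors' deposited table gave q = 0.998. The sources used here do not say whether reads were counted by strand, so the division of reads at this junction between CG43083 and Eig71Ea is uncertain. Farther out, comm3, a gene of the commissureless family of axon guidance regulators, had 27.5 FPKM in hsromega66 larvae and 18.8 FPKM in control larvae. The noncoding gene lncRNA:CR45977 had 3.58 FPKM in hsromega66 larvae and 3.04 FPKM in control larvae. Eig71Ek, CG43082 and CG7304 had no row in the values used here.

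The regulators that act upstream of the cluster had log2(FPKM + 1) differences between -0.28 and 0.26. EcR, the ecdysone receptor, was at 45.5 FPKM in hsromega66 larvae and 51.0 FPKM in control larvae, and its partner usp at 22.0 FPKM in hsromega66 larvae and 18.2 FPKM in control larvae. The early gene br, which encodes the Broad zinc finger proteins needed for late puff genes, was at 112 FPKM in hsromega66 larvae and 136 FPKM in control larvae. Eip74EF, which encodes an ETS-domain factor that acts on the late Eig71E genes, was at 33.2 FPKM in hsromega66 larvae and 29.2 FPKM in control larvae. None of these 4 was called by the authors' Cuffdiff q-value, with lowest q-values of 0.998 for EcR, usp and Eip74EF and 0.967 for br. The 0.967 belongs to 1 listed transcript of br, with an unadjusted Cuffdiff p of 0.03985. That transcript was at 1.51 FPKM in hsromega66 larvae and 0 FPKM in control larvae, opposite in direction to the summed br level.

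Among 23 listed genes of the receptor and early regulator list, 1 was called and rose, Eip78C, an early-late nuclear receptor, at 48.8 FPKM in hsromega66 larvae and 22.8 FPKM in control larvae (q = 0.0332 in the authors' deposited table). Over the whole list the median log2(FPKM + 1) difference was 0.16, with 16 genes above 0 and 7 below. Of 15 other ecdysone-responsive genes, 1 rose and 2 fell by the authors' q-value. The rise was in Cyp18a1, an enzyme that inactivates ecdysteroids, at 11.5 FPKM in hsromega66 larvae and 2.31 FPKM in control larvae (q = 0.00546 in the authors' deposited table). The falls were in Ldh, lactate dehydrogenase, at 106 FPKM in hsromega66 larvae and 254 FPKM in control larvae (q = 0.0177 in the authors' deposited table), and Eip55E, an enzyme of cysteine synthesis, at 91.2 FPKM in hsromega66 larvae and 197 FPKM in control larvae (q = 0.00983 in the authors' deposited table). This list's median was -0.11. Of the 11 listed genes of ecdysteroid synthesis none was called by the authors' Cuffdiff q-value, 1 had a transcript with a nominal p of 0.05 or below, and the median of the 10 that reached 1 FPKM was -0.016. The gene with that p was sro, at 42.6 FPKM in hsromega66 larvae and 73.8 FPKM in control larvae (unadjusted p = 0.01805 and q = 0.591 in the authors' deposited table). A transcript with a nominal p of 0.05 or below was found in 948 of all 12116 genes, or 7.82%. The most extreme of the list was Ptth, the brain peptide that drives ecdysone release. It stood at 0.0290 FPKM in hsromega66 larvae and 1.01 FPKM in control larvae (unadjusted p = 0.498 and q = 0.998 in the authors' deposited table). Its mutant value is below 0.669 FPKM, so Ptth entered the table only through its level in control larvae.

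Glue genes, which encode the adhesive secreted by the same salivary glands before the late puffs, had mostly lower values in hsromega66 larvae than in control larvae. Eig71Ee lay on the same side and the 3 small Eig71E genes on the other. Eig71Eb, 1 of those 3, was listed only through its mutant level, so its side was bound by its listing. Of 10 listed glue and new-glue genes, 1 was called, Sgs1, which fell to 3.67 FPKM in hsromega66 larvae, against 10.7 FPKM in control larvae (q = 0.00546 in the authors' deposited table). A nominal Cuffdiff p of 0.05 or below was found for 3, Sgs1, Sgs3 and Sgs4, all lower in hsromega66 larvae. Over the 10 genes the median log2(FPKM + 1) difference was -0.84, with 7 genes below 0 and 3 above. Sgs3 stood at 416 FPKM in hsromega66 larvae and 863 FPKM in control larvae, and Sgs5 at 5166 FPKM in hsromega66 larvae and 8520 FPKM in control larvae, beside differences of -1.05 and -0.72. In the authors' deposited table Sgs3 had an unadjusted p of 0.00115 and a q of 0.0783. Sgs5 had an unadjusted p of 0.08035 and a q of 0.998 there. The most abundant, Sgs7, was near level, at 30487 FPKM in hsromega66 larvae and 29798 FPKM in control larvae.

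**Figure D4:**
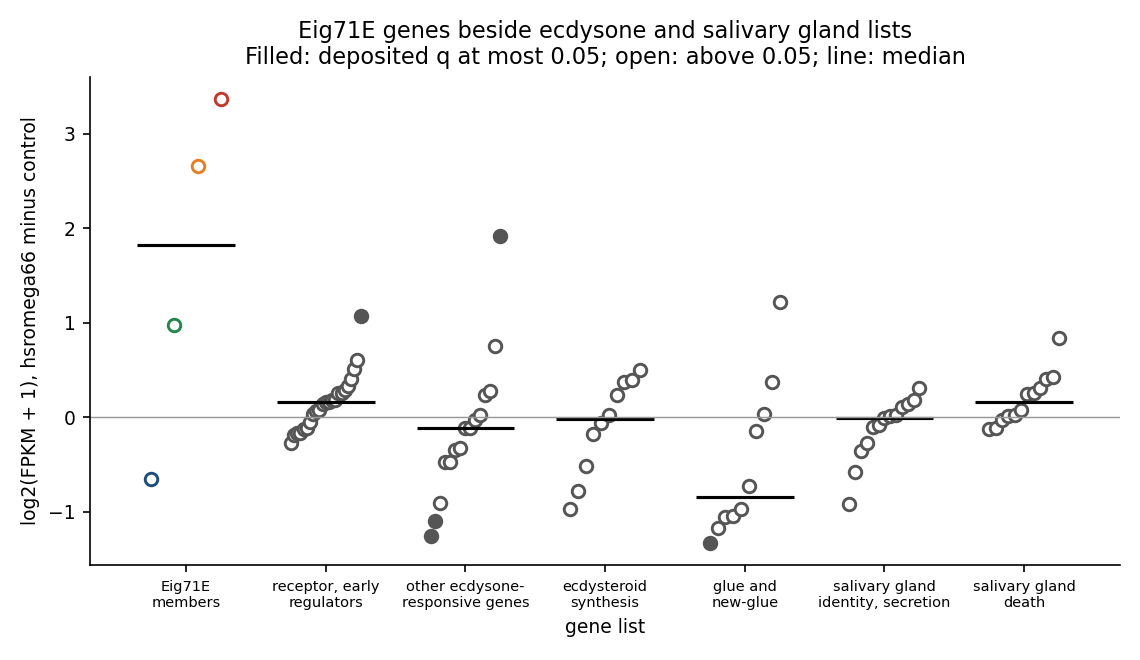
Differences in log2(FPKM + 1), hsromega66 minus control, of the 4 listed Eig71E genes and of 6 lists of ecdysone and salivary gland genes (genes of at least 1 FPKM in a genotype), 1 point per gene (from low to high in the Eig71E column: Eig71Ee, Eig71Eg, Eig71Eb, Eig71Ea), filled where the authors' q-value was at most 0.05, with the list median as a line. The Eig71E genes run from -0.65 to 3.37, and single genes of the other lists from -1.33 (Sgs1) to 1.92 (Cyp18a1). The median of the 4 Eig71E genes is 1.82, and the medians of the other lists lie between -0.84 and 0.16. The 1.82 depends in part on Eig71Eb, whose direction was bound by its listing through the mutant level. That median describes the listed genes and not the cluster.

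Values of the tissues that can make these RNAs were set beside the cluster. In whole larvae, fewer cells of a type and less RNA per cell cannot be told apart. Of 13 listed genes of salivary gland identity and secretion, none was called by the authors' Cuffdiff q-value, 2 had a transcript with a nominal p of 0.05 or below, and the median was -0.0012. The forkhead factor fkh, a regulator of salivary gland genes, stood at 3.82 FPKM in hsromega66 larvae and 6.21 FPKM in control larvae (unadjusted p = 0.0262 and q = 0.757 in the authors' deposited table). The most extreme gene of this list was Papss, an enzyme that makes the sulfate donor for secreted glycans, at 11.3 FPKM in hsromega66 larvae and 22.3 FPKM in control larvae (q = 0.0998 in the authors' deposited table). The 8 salivary gland markers, which share members with both salivary lists, were all listed, 4 of them above 0 and 4 below. None of the 8 was called, and 2 had a nominal Cuffdiff p of 0.05 or below, Sgs3 and fkh, both lower in hsromega66 larvae. The summed level of the 8 was 37939 FPKM in hsromega66 larvae and 38450 FPKM in control larvae. Most of that sum was Sgs7, at 30487 FPKM in hsromega66 larvae and 29798 FPKM in control larvae. Of 13 listed genes of salivary gland death, a later step of the same response, none was called by the authors' Cuffdiff q-value and 1 had a nominal p of 0.05 or below: the caspase gene Dronc, at 55.7 FPKM in hsromega66 larvae and 30.7 FPKM in control larvae (q = 0.151 in the authors' deposited table). The median of the 12 that reached 1 FPKM was 0.16.

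Markers of other tissues were compared as well. Of 9 listed gut genes, 3 rose by the authors' q-value (Amy-d and its near-identical copy Amy-p, both amylases, and the trypsin gene alphaTry), 7 had a nominal p of 0.05 or below and 8 lay above 0. Their summed level was 7531 FPKM in hsromega66 larvae and 3805 FPKM in control larvae. Most of the difference between those sums came from LysD and LysB, neither of them called. LysD stood at 2789 FPKM in hsromega66 larvae and 117 FPKM in control larvae (q = 0.0684 in the authors' deposited table). LysB stood at 938 FPKM in hsromega66 larvae and 73.0 FPKM in control larvae (q = 0.133 in the authors' deposited table). The 1 gut gene below 0 was the protease gene Jon99Ciii, at 730.0 FPKM in hsromega66 larvae and 1760.1 FPKM in control larvae (q = 0.0563 in the authors' deposited table). Of 10 haemocyte genes none was called by the authors' Cuffdiff q-value, and 7 lay below 0 and 3 above. A nominal p of 0.05 or below was found for 4, Hml, NimC1, PPO1 and eater, all lower in hsromega66 larvae. The summed level of the 10 was 886 FPKM in hsromega66 larvae and 1018 FPKM in control larvae. Most of that sum was fon, at 584 FPKM in hsromega66 larvae and 620 FPKM in control larvae. All 9 muscle genes lay below 0, with none called by the authors' Cuffdiff q-value and 1 with a nominal p of 0.05 or below, and their summed level was 5920 FPKM in hsromega66 larvae and 8653 FPKM in control larvae. Of 7 fat body genes 5 lay below 0, with none called and 0 with a nominal Cuffdiff p of 0.05 or below, and their summed level was 33706 FPKM in hsromega66 larvae and 36626 FPKM in control larvae. The part of these tissue differences in the levels of the Eig71E genes was not tested.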

How the data were processed

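Per the labels' protocols, RNA of 5 larvae was made into a stranded, ribosome-depleted library and read as pairs of 100 bp. The tools named, per the submitters' processing notes, were Cuffdiff 2.1.1, Cufflinks, TopHat and Bowtie, and the build was dm6. Per the file headers, the authors deposited for each of 21529 transcripts 1 FPKM per genotype, the log2 fold change (hsromega66 over control) and its p-value and q-value. The deposited log2 values equal the log2 FPKM ratio within 0.0001 for all 21164 transcripts above 0 in both genotypes, and Benjamini-Hochberg adjustment of the p-values over all transcripts gave every q-value within 1e-06. Values per library were not analysed here, so no standard deviation or test of libraries was computed. Nothing in the labels says whether libraries came from separate cultures.

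FPKM was summed over a gene's listed transcripts. Differences are log2(FPKM + 1), and list medians used genes of at least 1 FPKM in a genotype. Gene models came from Ensembl 115 (BDGP6.54, dm6 coordinates). The loci of all 4 listed members equal them. Named genes were the members, listed genes within 20 kb, up to 2 called genes or the most extreme gene of each list, and EcR, usp, br, Eip74EF, fkh and Hsromega. Further glue genes, Eip55E, sro, the gut and haemocyte genes and Dronc were named after their values were seen. The members and lists were chosen with earlier results of these data known. Python 3.11.15, numpy 2.4.6, pandas 2.3.3 and matplotlib 3.10.9 were used.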

Additional observations from a re-analysis of the deposited data

How the results depend on the processing

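With 1 pooled value per genotype no replicate error could be computed here, so a value was said to move where it shifted by more than 1.5 times. For log2 differences the 1.5 is a fold on the unlogged scale and not a share of the log2 value. The count of called members was 0 with the authors' Cuffdiff q at 0.05, 0.01 or 0.1 and with a minimum of 5 FPKM, 2 under the authors' class rule and 3 with a nominal p of 0.05 or below, a setting chosen after seeing the data. The median difference of the 4 members, 1.82, became 2.47 with no pseudocount and, in another setting chosen after seeing the data, 2.66 without Eig71Ee. With 3 genes left, the 2.66 is the value of Eig71Eb itself, whose direction was bound by its listing through the mutant level. The difference of the summed FPKM of the 4 members, -0.58, became 1.77 without Eig71Ee, since that gene makes up nearly all of the sum. The 1.77 includes Eig71Eb as well. With a pseudocount of 0.1, Eig71Ea stood at 4.30 and Eig71Eb at 3.72. All 12 alternative values of single members kept their sign. Of 22 alternative list medians, 21 kept their sign and 0 moved by over 1.5 times. The exception in sign was ecdysteroid synthesis, at 0.022 with genes of at least 5 FPKM. Medians near 0 could still change by a large share of their own value. With genes of at least 5 FPKM the salivary gland marker median went from -0.063 to -0.358. In the same setting the median of salivary gland identity and secretion went from -0.0012 to -0.098. No paired analysis was possible because each genotype has 1 pooled value, and for the same reason no library could be left out.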
